A study of Homo sapiens with 6 samples.

Results

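The genes described here are those for the subunits of the respiratory chain and the ATP synthase, split by the genome that encodes them. They were taken by symbol from the expression table: NDUFA, NDUFB, NDUFC, NDUFS and NDUFV, SDHA to SDHD, UQCR, CYC1, COX4 to COX8, ATP5 and MT- genes, without NDUFAF assembly factors and ATP5SL. The rule took 98 of 14987 genes, of which 85 are nuclear and 13 are mitochondrially encoded mRNAs. The cells were HCT116, a human line established from a colorectal carcinoma, and mRNA was sequenced from cells labelled wild type (NC) and from cells with a YAP knockdown by construct shYAP1 or shYAP3. Each of the 3 kinds of cells gave 1 library in control medium, with no agent named, and 1 library after 6 h without glucose. The study asked how YAP, the coactivator restrained by the Hippo kinases, takes part in the expression induced by glucose deprivation. The labels do not say that libraries came from separate cultures, so p-values measure only the spread between these 6 libraries, which may be technical. Where the response is compared between NC and shYAP cells, that spread comes from the 4 shYAP libraries alone.

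The respiratory chain passes electrons from NADH (complex I) and succinate (complex II) through complex III to oxygen at complex IV, and the ATP synthase (complex V) uses the resulting proton gradient. Complexes I, III, IV and V are built from proteins of both genomes, whereas all of complex II is nuclear. The mitochondrial genome is transcribed by its own polymerase, POLRMT with TFAM, into long RNAs that are cut into mRNAs, and the nuclear genes are transcribed one by one, many with sites for NRF1, GABPA and YY1 near their starts.

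The table held 37 nuclear and 7 mitochondrial genes of complex I, 4 nuclear genes of complex II, 9 and 1 of complex III, 13 and 3 of complex IV, with NDUFA4 counted there, and 15 and 2 of complex V. Another 7 nuclear genes match the symbols without being subunits: the readthrough ATP5J2-PTCD1, the pseudogenes or copies ATP5EP2, ATP5L2 and COX6A1P2, the factors ATP5S and COX7A2L, and the paralog NDUFA4L2. This left 78 nuclear subunits and isoforms, of which 76 reached 1 in 2 or more libraries and were tested, with all 13 mitochondrial genes. The isoforms COX6B2 and COX8C, and NDUFA4L2, ATP5EP2, ATP5L2 and COX6A1P2, were below that level. NDUFA7, NDUFB8, SDHD and UQCR11 carry Ensembl identifiers that the reference gives to other, overlapping loci, so their values are uncertain.

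Promoters of 4 nuclear subunits that rose are shown because each holds a motif of a factor named above. They run from 250 bases before to 50 after the transcription start, 5′ to 3′ on the + strand, and come from RefSeq (GRCh38.p14). Capitals mark a match, and positions count from the start site. NDUFS4, an accessory subunit of complex I, lies at chr5:53560389-53560688 with the YY1 motif from 22 to 31. COX5B of complex IV lies at chr2:97645812-97646111 with ETS motifs, the kind GABPA binds, from -37 to -31 and from -5 to 2. COX6A1 of complex IV lies at chr12:120437863-120438162 with an ETS motif on the other strand from -16 to -10. ATP5C1, the central shaft of the ATP synthase, lies at chr10:7787927-7788226 with the NRF1 core from -22 to -13.
NDUFS4: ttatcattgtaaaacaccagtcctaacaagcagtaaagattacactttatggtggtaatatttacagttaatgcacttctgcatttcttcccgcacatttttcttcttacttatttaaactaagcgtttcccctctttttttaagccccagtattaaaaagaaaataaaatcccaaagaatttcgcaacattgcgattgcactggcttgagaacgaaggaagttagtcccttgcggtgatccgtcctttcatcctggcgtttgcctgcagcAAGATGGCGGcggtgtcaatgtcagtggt
COX5B: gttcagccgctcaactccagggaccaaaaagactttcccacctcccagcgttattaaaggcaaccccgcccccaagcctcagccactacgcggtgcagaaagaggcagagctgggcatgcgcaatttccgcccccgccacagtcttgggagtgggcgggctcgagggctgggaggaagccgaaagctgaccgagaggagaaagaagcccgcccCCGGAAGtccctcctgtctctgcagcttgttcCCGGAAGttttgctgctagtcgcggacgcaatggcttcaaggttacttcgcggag
COX6A1: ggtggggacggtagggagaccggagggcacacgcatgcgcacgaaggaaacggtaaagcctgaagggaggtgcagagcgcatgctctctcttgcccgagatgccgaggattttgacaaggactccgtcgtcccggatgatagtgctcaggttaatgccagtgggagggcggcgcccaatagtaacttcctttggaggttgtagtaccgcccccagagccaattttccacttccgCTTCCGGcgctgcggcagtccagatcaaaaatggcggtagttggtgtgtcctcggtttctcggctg
ATP5C1: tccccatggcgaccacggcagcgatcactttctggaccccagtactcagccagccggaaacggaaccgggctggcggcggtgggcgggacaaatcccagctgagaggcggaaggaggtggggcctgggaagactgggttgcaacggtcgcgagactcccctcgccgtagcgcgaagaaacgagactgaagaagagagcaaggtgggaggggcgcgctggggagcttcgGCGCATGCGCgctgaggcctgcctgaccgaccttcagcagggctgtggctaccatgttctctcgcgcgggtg

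Promoters were matched for 64 of the nuclear subunits and searched on both strands for 3 motifs, of which ETS and YY1 can overlap at AAG. The NRF1 core, spelled by the capitals of the ATP5C1 promoter, was present in 4 promoters, or 6.25%, against 2.06% of the 11715 promoters of genes in the table. The ETS motif CCGGAAG was present in 19, or 29.7%, against 17.6%. The YY1 motif, spelled by the capitals of the NDUFS4 promoter, was present in 7, or 10.9%, against 2.52%. At least 1 of the 3 was present in 27 of 64 subunits (42.2%), 20.9% of the genes in the table and 12.1% of all 35116 promoters. It was present in 9 of the 17 matched subunits that rose and in 18 of the other 47. A match is a description of letters, and the occupancy of these sites was not measured.

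Neighbouring mitochondrial genes share bases, which bears on their values. The end of MT-ATP8 and the start of MT-ATP6 overlap by 46 bases, or 22.2% of MT-ATP8, and MT-ND4L and MT-ND4 overlap by 7 bases. The sequences below are from GENCODE transcripts (GRCh38), with the overlap in capitals and 10 bases on each side.
MT-ATP8 and MT-ATP6: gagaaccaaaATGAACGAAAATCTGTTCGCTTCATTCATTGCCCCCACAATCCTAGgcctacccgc
MT-ND4L and MT-ND4: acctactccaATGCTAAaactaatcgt
Reads in an overlap cannot be assigned to 1 gene. MT-ND6 is the single one of the 13 on the other strand, and because a strand setting is not given in the sources used here, its reads cannot be told apart from antisense RNA. As background, MT-ND6 mRNA also lacks the poly(A) tail of the others, and these libraries were made with oligo-dT beads.

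The libraries held 16912634 to 22161075 reads over listed genes. YAP1 stood at 188 in NC control, 35.7 in shYAP1 control and 38.2 in shYAP3 control cells. After deprivation it stood at 154, 20.3 and 18.2 in the same order. The knockdown difference over both media was -2.63 on the log2 scale (SE 0.17; adjusted p = 0.00082 in limma). Of 15 colorectal epithelial markers 10 were listed, with CDX1, CEACAM5, CEACAM6, MUC2 and TFF3 not in the table, and 8 had a value of at least 1 in every library. Their summed value was 3294 to 4564 in control medium and 5347 to 6319 after deprivation. KRT8 was the largest part, at 2346, 2078 and 1642 and then 3185, 3250 and 2987 in NC, shYAP1 and shYAP3 cells. Of the 8 tested, 3 were higher and 1 lower after deprivation (limma adjusted p under 0.05), against 16.5% and 15.6% of all genes. The lower one was CDX2, from 13.5, 11.9 and 14.2 to 8.78, 6.91 and 5.75. Summed fibroblast markers (4 of 9 listed) stood at 8.23 to 10.5 and 3.05 to 6.33, leukocyte markers (8 of 10) at 18.8 to 20.7 and 22.6 to 38.6, and endothelial markers (4 of 8) at 3.74 to 5.11 and 3.81 to 8.13. The shift of these sums with medium was not tested for a part in the results below.

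In control medium the mitochondrial mRNAs stood far above the nuclear ones. Compared per kilobase of transcript, the median value was 2920 over the 13 mitochondrial genes and 97.5 over the nuclear subunits, against 10.9 over all genes tested. MT-CO1, the catalytic core of complex IV, was highest at 9821 per kilobase, and MT-ND1 was lowest of the 13 at 1011. Among nuclear genes the median per kilobase was 180 for complex IV, 147 for complex V, 114 for complex III and 58.4 for complex I, with complex II between the last pair. The order of the complexes was not tested.

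Mitochondrial mRNAs took 5.70%, 5.76% and 5.47% of the listed reads in NC, shYAP1 and shYAP3 cells in control medium. After deprivation they took 5.48%, 5.88% and 4.27%. The shYAP3 deprived library thus stood below the other 5, with a 95% exact Clopper-Pearson interval of 4.26% to 4.28% that covers counting error only. The nuclear genes of the rule took 0.903%, 0.914% and 0.938% of the listed reads before, and 0.861%, 0.994% and 1.28% after, deprivation. For each nuclear read there were 6.31, 6.30 and 5.83 mitochondrial reads with glucose, and 6.36, 5.91 and 3.33 without it. The ratio was thus little changed in NC cells and lowest in the shYAP3 deprived library.

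**Figure D1:**
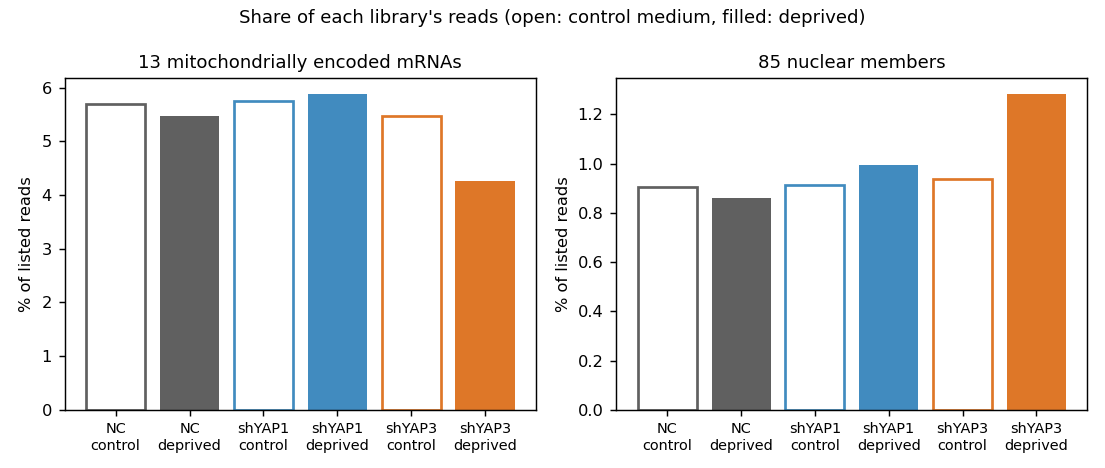
Share of each library's listed reads, in percent, taken by the 13 mitochondrial mRNAs and by the nuclear genes of the rule. Each bar is 1 library, open in control medium and filled after 6 h without glucose. The shYAP3 deprived library has the lowest mitochondrial share, 4.27%, and the highest nuclear share, 1.28%.

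After 6 h without glucose, some nuclear subunit mRNAs rose and none fell, while 1 mitochondrial mRNA fell and none rose past the test. Of the 76 nuclear subunits tested over all 6 libraries, 19 were higher and 0 lower, against 16.5% of all 12263 genes higher and 15.6% lower (limma on log2(value + 1) with genotype and medium, Benjamini-Hochberg adjusted p under 0.05). The median log2 difference was 0.43 over the nuclear subunits, from -0.25 to 0.95, and 0.05 over all genes. The difference was positive for 69 of 76 nuclear subunits, against 6602 of all 12263 genes. Over the mitochondrial genes the median was 0.16, from -0.54 to 0.49, and 0 of 13 were higher and 1 was lower. At an unadjusted p under 0.05, 43 nuclear subunits were higher and 0 lower, and 2 mitochondrial genes were higher and 1 lower, against 24.1% of all genes higher and 21.2% lower. On recovered reads, edgeR called 15 nuclear subunits higher (15.1% of all genes) and DESeq2 30 (17.1%), none lower, and 0 and 2 mitochondrial genes higher.

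The nuclear count rests on single libraries and on the scaling. No nuclear subunit passed without the shYAP1 control or the shYAP3 control library, 7 without either NC library, 34 without the shYAP1 deprived and 33 without the shYAP3 deprived library. The calls over all genes moved too: 4.59% and 3.86% were higher without the shYAP1 and the shYAP3 control library, 5.62% and 5.64% without the NC control and the NC deprived library, and 21.4% and 23.4% without the shYAP1 and the shYAP3 deprived library. The gap between the nuclear and the mitochondrial median was 0.28, and 0.04 without the shYAP3 deprived library. NDUFS4, UQCRB and COX6A1 were called in all 11 other settings with every library kept, and ATP5C1 and ATP5O in 3 of 11. With cell line as a block 27 nuclear subunits and 1 mitochondrial gene (MT-ND3) were higher, against 19.0% of all genes. Scaled to listed reads, all genes shifted from a median of 0.05 to -0.24 and split into 749 higher and 3802 lower, against 2018 and 1918. The nuclear median stood 0.39 above that of all genes and 0.37 above it so scaled, and the mitochondrial median 0.11 and 0.08 above, but -0.43 after quantile normalization.

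The nuclear change was smallest in NC and largest in shYAP3 cells. The median log2 difference of the 76 nuclear subunits was 0.11 in NC cells, 0.34 with shYAP1 and 0.90 with shYAP3, while the median of all genes was 0.02, 0.03 and 0.04. None of the 76 was at least 1.5-fold higher in NC cells (9.57% of all genes), 10 were in shYAP1 cells (9.4%) and 51 in shYAP3 cells (23.2%). None was at least 1.5-fold lower in NC (9.86%), shYAP1 (9.99%) or shYAP3 cells (19.2%). The difference grew from NC to shYAP1 to shYAP3 for 64 of 76 nuclear subunits and 1 of 13 mitochondrial genes (21.1% of all genes). That order is the order of the nuclear medians above, so the count is no separate support for it. It is not an order of YAP1 values, which were 35.7 (shYAP1) and 38.2 (shYAP3) with glucose, and 20.3 and 18.2 without it. The shYAP3 deprived library held the highest of the 6 values for 68 of the 76, against 2 of 13 mitochondrial genes and 34.9% of all genes. For 36 of the 76, all 3 deprived libraries stood above all 3 controls (26.8%). The mitochondrial medians were 0.05, 0.26 and 0.13. As in any bulk measurement, the number of cells with an mRNA and its amount per cell cannot be told apart.

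**Figure D2:**
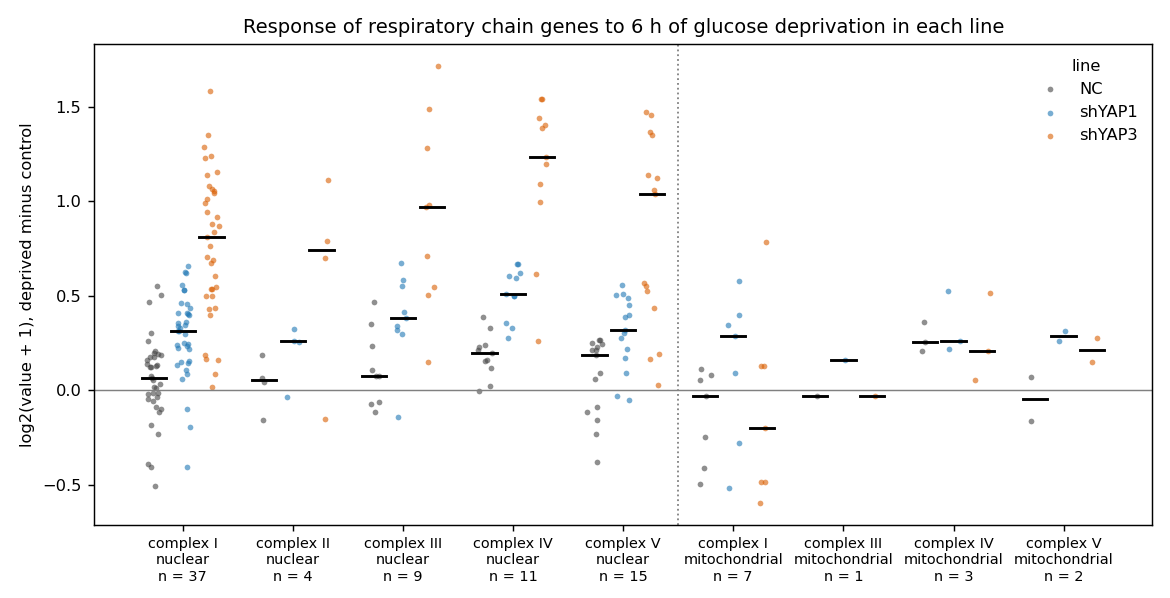
Difference in log2(value + 1), deprived minus control, for each tested gene by complex and genome, with 1 point per gene and line and a black bar at the median. Nuclear genes sit highest in shYAP3 cells, with a median of 1.23 for complex IV, while the mitochondrial genes of complex I have medians near or below 0 in NC and shYAP3 cells.

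Complex IV, which reduces oxygen, had the most nuclear subunits past the test for its size, 7 of 11, against 16.5% of all genes higher. Its median log2 difference was 0.58, and differences between complexes were not tested. By line its median was 0.20 (NC), 0.51 (shYAP1) and 1.23 (shYAP3). COX6A1, a structural subunit (ENSG00000111775), stood at 123, 145 and 130 in NC, shYAP1 and shYAP3 cells in control medium. It stood at 161, 224 and 355 after deprivation. All 3 deprived values lay above the controls, and log2(value + 1) rose by 0.82 (SE 0.20; adjusted p = 0.018 in limma).

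COX5B, another structural subunit (ENSG00000135940), went from 91.9, 101 and 85.8 to 108, 161 and 229, a log2 rise of 0.77 (SE 0.20; adjusted p = 0.023 in limma). The groups did not overlap. COX8A, a small structural subunit, went from 94.5, 85.8 and 89.7 to 119, 131 and 138 (log2 0.52, SE 0.13, limma adjusted p = 0.019), with a smaller spread between lines than COX6A1. COX7C, COX7A2, COX6B1 and COX4I1 also rose, with log2 fold changes of 0.82, 0.70, 0.58 and 0.55. COX5A did not pass (0.22, adjusted p = 0.23), nor did NDUFA4 (0.78, adjusted p = 0.051), COX6C and COX7B. NDUFA4 passed with cell line as a block (adjusted p = 0.016).

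Complex III, which passes electrons from ubiquinol to cytochrome c, had 3 of 9 nuclear subunits higher (16.5% of all genes), with a median of 0.46. UQCRB, which helps hold the ubiquinone site, stood at 196, 239 and 216 with glucose and at 272, 381 and 712 without it. It had the largest log2 fold change of the nuclear subunits, 0.95 (SE 0.24; adjusted p = 0.019 in limma). UQCRH, the hinge protein, and the core protein UQCRC2 also rose, by 0.77 and 0.55. The redox subunits did not pass: CYC1, cytochrome c1, had 0.30 (adjusted p = 0.15), and UQCRFS1, the Rieske iron-sulfur protein, -0.04 (adjusted p = 0.85). UQCRQ, a small subunit, had 0.64 (adjusted p = 0.055, and 0.029 with cell line as a block).

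The ATP synthase had 4 of 15 nuclear genes higher (16.5% of all genes), with a median of 0.41. ATP5H and ATP5O, which belong to the stalk that holds the catalytic head still, rose by 0.72 and 0.71. ATP5C1 and ATP5E, of the central shaft, rose by 0.74 and 0.71. ATP5C1 stood at 143, 163 and 159 with glucose and at 170, 229 and 443 without it (SE 0.25, limma adjusted p = 0.048). The catalytic pair ATP5A1 and ATP5B had 0.12 and 0.38 and did not pass.

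Paralogs that encode the same rotor ring protein did not pass either. ATP5G1, ATP5G2 and ATP5G3 had log2 fold changes of -0.09, 0.31 and 0.18 (limma adjusted p = 0.65, 0.09 and 0.41). ATP5L, a membrane subunit, passed with cell line as a block (0.58, adjusted p = 0.027), and not without it (adjusted p = 0.052). ATP5J2, a neighbour of it in the membrane, had 0.10 (adjusted p = 0.68).

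Complex I, the NADH dehydrogenase, had 5 of 37 nuclear subunits higher, a share below the 16.5% of all genes, with a median of 0.36. All 5 were accessory subunits, of 30 tested, a share near that of all genes: NDUFS4, NDUFA5, NDUFB11, NDUFB5 and NDUFA7. None of the 7 nuclear core subunits, which carry the flavin and iron-sulfur centres, passed in limma or edgeR, and 1 passed in DESeq2. An unadjusted limma p under 0.05 was found for 5 of the 7 core and 13 of the 30 accessory subunits. All 3 deprived libraries stood above all 3 controls for 6 core and 9 accessory subunits (26.8% of all genes). The medians were 0.34 (core) and 0.40 (accessory), and the 2 kinds were not compared by a test. NDUFS4 stood at 32.5, 38.9 and 35.6 with glucose and at 48.1, 61.9 and 108 without it (log2 0.93, SE 0.22, limma adjusted p = 0.014). NDUFB11, in the membrane arm, stood at 44.0, 40.7 and 41.8 and at 62.9, 63.2 and 84.3 (0.71, SE 0.15, adjusted p = 0.011). Both genes were higher in all 3 deprived libraries. NDUFB10 and NDUFV3 had -0.0041 and -0.04 (limma adjusted p = 0.99 and 0.84).

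Complex II, the succinate dehydrogenase, had 0 of 4 genes past the test in limma, against 16.5% of all genes higher and 15.6% lower. Its median was 0.36. In limma 1 of them (SDHB) had an unadjusted p under 0.05, and 0 passed in edgeR and 1 in DESeq2. SDHA, the flavoprotein, stood at 116, 115 and 108 with glucose and at 104, 113 and 97.4 without it. SDHB, the iron-sulfur subunit, stood at 77.2, 83.8 and 78.2 and at 88.0, 101 and 170. Its log2 difference was 0.52 (in limma, adjusted p = 0.078, and 0.048 with cell line as a block), and SDHA had -0.11 (adjusted p = 0.52). The membrane anchors SDHC and SDHD had 0.37 and 0.36, neither past the test.

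**Figure D3:**
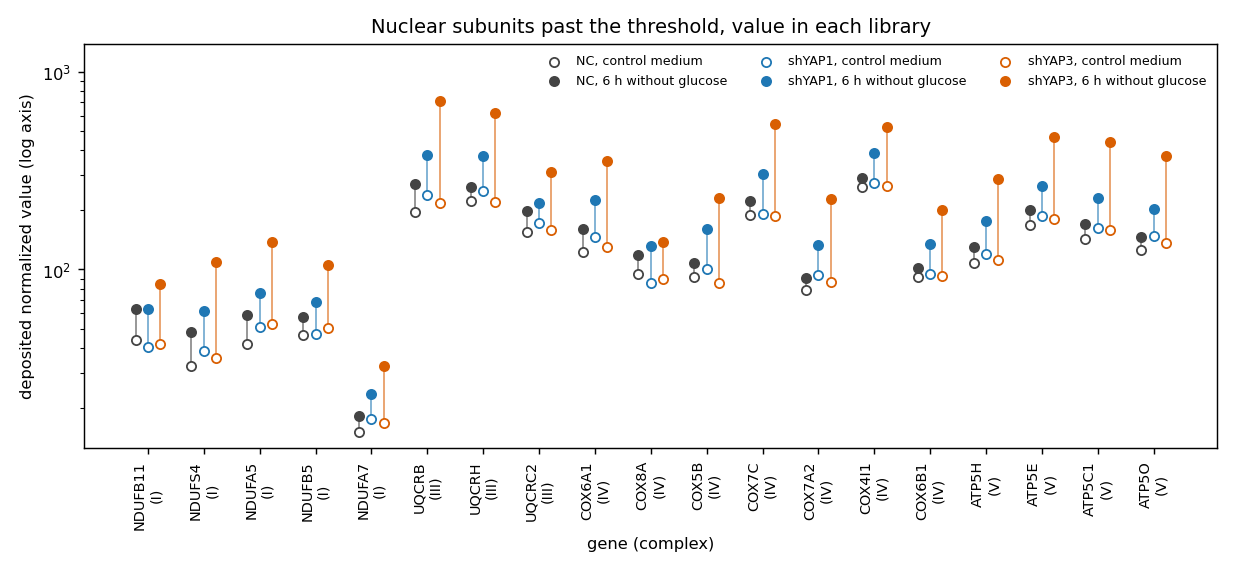
Deposited normalized value, on a log axis, of the 19 nuclear subunits that rose, with the complex in brackets; open points are libraries in control medium and filled points libraries after 6 h without glucose. The filled shYAP3 points stand highest, for example 712 for UQCRB.

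The mitochondrial genes did not move together. MT-ND6, a core membrane subunit of complex I (ENSG00000198695), stood at 672, 683 and 602 in NC, shYAP1 and shYAP3 cells in control medium. It stood at 476, 477 and 398 after deprivation. All 3 lines fell, and the log2 difference was -0.54 (SE 0.14; adjusted p = 0.023 in limma). The call was lost without either control shYAP library (adjusted p = 0.15 and 0.088) or either NC library (0.091), and the sign held in every setting.

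MT-ND5, on the strand opposite to MT-ND6, went from 2217, 2263 and 2036 to 1867, 1864 and 1455 and did not pass (log2 -0.34, limma adjusted p = 0.15). MT-CO3, a core subunit of complex IV, went from 5801, 6018 and 5451 to 7449, 8670 and 7797. Its log2 difference was 0.47 (adjusted p = 0.075), and -0.03 after quantile normalization. MT-ND3 went from 608, 647 and 663 to 657, 964 and 1142 (0.49, adjusted p = 0.051, and 0.047 with cell line as a block), and -0.08 with length and GC trends removed. Deprived libraries stood wholly above controls for MT-CO2 and MT-CO3 (26.8% of all genes) and wholly below for MT-ND5 and MT-ND6 (23.8%).

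The remaining genes had smaller differences, none past the test. MT-ND1 and MT-ND2, of complex I, went from 1099, 923 and 878 to 826, 982 and 627 and from 2279, 2197 and 2239 to 2228, 2897 and 1947. MT-ND4 and MT-ND4L had log2 differences of 0.18 and 0.16. MT-CYB, cytochrome b, had 0.03, MT-CO1 and MT-CO2 of the complex IV core had 0.19 and 0.21, and MT-ATP6 and MT-ATP8 of the ATP synthase had 0.16 and 0.14. All of these except MT-ND1, which was negative throughout, turned negative in at least 1 other scaling of the libraries. For MT-ND1 the difference was -0.27 (limma adjusted p = 0.29).

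The composition of the mitochondrial reads does not depend on the scaling between libraries, and was examined after the values were seen. MT-CO3 held 11.5%, 11.6% and 11.9% of the mitochondrial reads with glucose and 13.4%, 13.8% and 15.6% without it. MT-ND6 held 1.33%, 1.32% and 1.31% and then 0.853%, 0.761% and 0.796%. MT-ND5 held 4.39%, 4.37% and 4.43% and then 3.35%, 2.98% and 2.91%. Shares of MT-ND1 and MT-CYB were also lower in all 3 deprived libraries, so that 4 of 13 lay wholly below and 1 wholly above. Of all 12263 genes, 32.3% lay wholly below and 11.9% wholly above when their reads were divided by the mitochondrial reads, so these counts are near the share of all genes. The other 8 overlapped between media, MT-CO1 at 29.6% to 32.2% and 28.2% to 32.5%. With 3 libraries a group, an exact permutation test cannot go below p = 0.10, so no test is given.

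**Figure D4:**
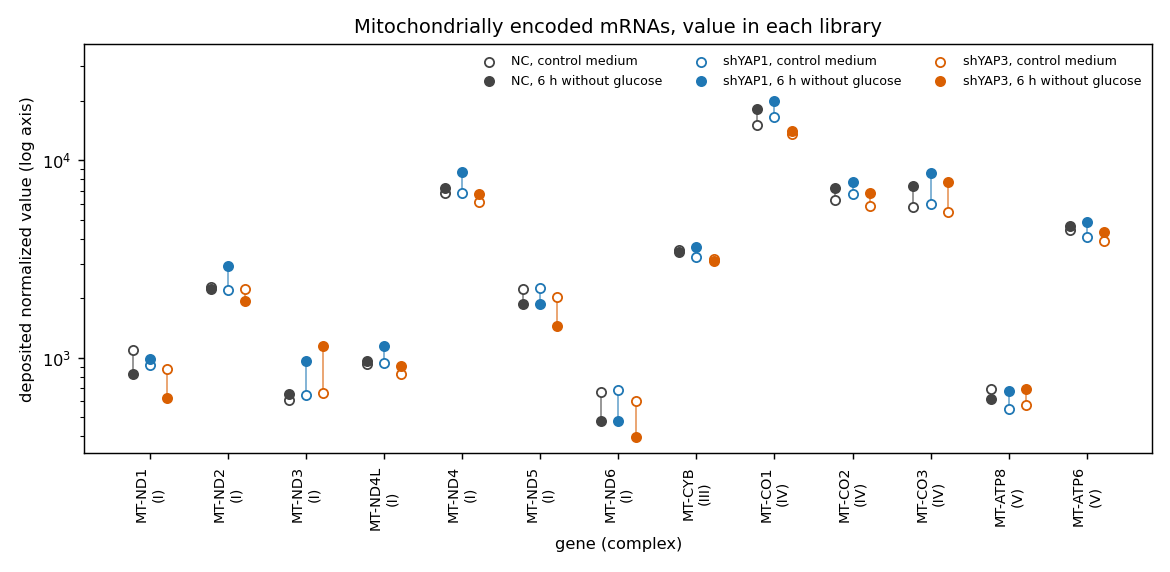
Deposited normalized value, on a log axis, of the 13 mitochondrial mRNAs; open points are libraries in control medium and filled points libraries after 6 h without glucose. Filled points lie below open ones for MT-ND6 and MT-ND5 and above them for MT-CO3.

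YAP knockdown over both media moved no member past the test, against 0 genes higher and 1 (0.00815%) lower of 12263 in limma, with 7.32% of genes at an unadjusted p under 0.05. In control medium the nuclear median of shYAP minus NC was 0.08 for shYAP1 and 0.03 for shYAP3. After deprivation it was 0.35 and 0.85. The smallest limma adjusted p of any tested subunit was 0.58, with 5 nuclear subunits and 0 mitochondrial genes at an unadjusted p under 0.05. edgeR and DESeq2 called no nuclear subunit or mitochondrial gene either. At an unadjusted p under 0.05, edgeR had 5 nuclear subunits and 0 mitochondrial genes, and DESeq2 had 21 and 1, all higher. The difference of the response between genotypes had a median of 0.51 over the nuclear subunits and 0.14 over the mitochondrial genes. The spread in its test is that between the shYAP1 and shYAP3 libraries, because NC has 1 library per medium, so variation of NC cells is not measured. All 76 nuclear values were positive, against 6204 of all 12263 genes, and all 76 rest on the same 6 libraries. No nuclear subunit or mitochondrial gene passed in limma, edgeR or DESeq2. In limma 0 of the 76 had an unadjusted p under 0.05 (0.905% of all genes). Without the shYAP1 deprived library, so that shYAP3 stood alone after deprivation and was assumed to vary like the others, 54 nuclear subunits and 1 mitochondrial gene passed (12.5% of all genes higher and 9.8% lower).

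Over all genes tested, transcript length moved with the response in each line, and GC content did so in NC and shYAP3 cells. Nuclear subunit mRNAs are short, with 50 of the 76 in the shortest length decile of genes tested (99 to 899 bases). All genes of that decile had medians of 0.10, 0.25 and 0.57 in NC, shYAP1 and shYAP3 cells, and those of the longest decile -0.08, -0.23 and -0.46. The 50 subunits within the shortest decile had 0.07, 0.33 and 0.99. Subunits under 45% GC had a median of 1.20 in shYAP3 cells and 0.21 in NC cells (n = 15), against 0.54 and -0.01 at 55% GC or more (n = 20). All genes in these GC classes had 0.40 and 0.21, and -0.18 and -0.11. In shYAP1 cells the subunit medians were 0.49 under 45% GC, 0.30 from 45% to 55% and 0.39 at 55% or more. All genes had 0.05, -0.01 and 0.05 there. With both trends removed the nuclear median was 0.24 over all lines, and 0.02, 0.21 and 0.48 by line. In that setting 18 of 76 were higher and 2 lower, against 20.4% and 17.4% of all genes, and 13 of the 19 that rose were among the 18. The mitochondrial median was then -0.22, and -0.24, 0.08 and -0.60 by line. The part of length and GC in the response was not tested beyond these values.

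**Figure D5:**
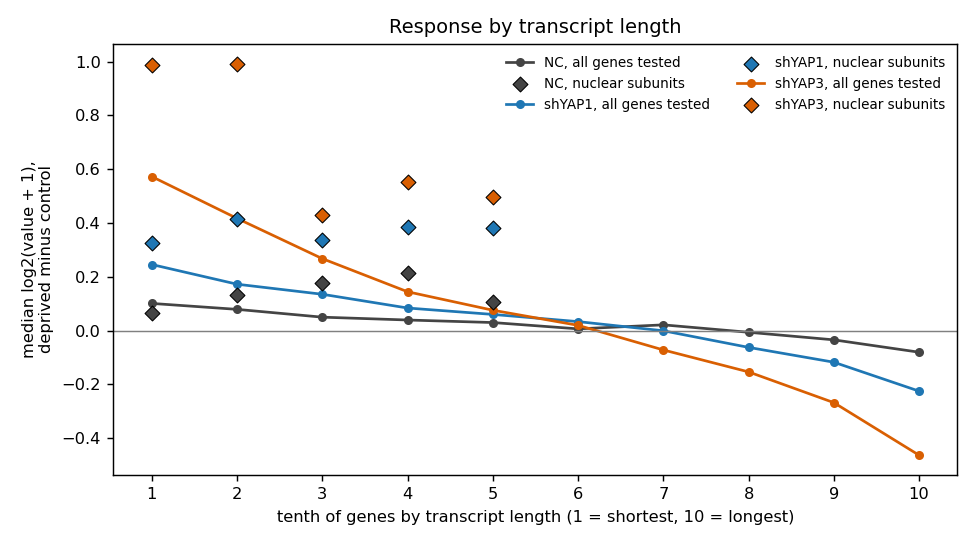
Median difference in log2(value + 1), deprived minus control, for deciles of all tested genes by transcript length (lines) and for nuclear subunits in deciles holding at least 3 of them (diamonds). In shYAP3 cells the line falls from 0.57 in the shortest decile to -0.46 in the longest, and the diamonds lie above it in the shortest decile at 0.99.

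Genes that build or run the chain moved in few cases, in a response where 16.5% of all genes were higher and 15.6% lower. Of 16 tested complex I assembly factors 2 rose, NDUFAF3 (log2 0.49) and ECSIT (0.52), and TMEM186 fell by 0.62. Of 10 factors for complexes II and III, C6orf57 (now SDHAF4) rose by 0.55. Of 23 for complex IV, CMC2, PET100 and COA6 rose by 0.64, 0.60 and 0.55. Of 7 genes tied to the ATP synthase, TMEM70, which helps assemble its rotor ring, fell by 0.50. The medians of these 4 lists were 0.29, -0.05, 0.25 and 0.41. Limma adjusted p under 0.05 was the threshold throughout.

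Genes for transcription, replication and RNA processing of the mitochondrial genome had 0 of 31 higher (16.5% of all genes) and 5 lower, about the 15.6% of all genes lower, with a median of -0.01. At an unadjusted limma p under 0.05, 3 were higher and 6 lower, and edgeR and DESeq2 called 0 higher and 6 lower. FASTKD5, an RNA-processing protein, fell by 0.66, C10orf2 (Twinkle, the replicative helicase) by 0.60, POLG, the DNA polymerase, by 0.57, FASTKD1 by 0.55 and POLG2 by 0.49. TFAM had 0.32, POLRMT -0.22 and LRPPRC, which stabilizes the mitochondrial mRNAs, 0.35, none past the test. TFAM stood at 76.1, 90.1 and 80.5 in control medium and 80.2, 93.7 and 144 after deprivation, so its deprived value was high in shYAP3 cells alone.

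Of 11 regulators of nuclear respiratory genes, 4 rose and 4 fell, against 16.5% of all genes higher and 15.6% lower. GABPA, which binds ETS sites, stood at 27.6, 51.9 and 45.4 and then at 56.2, 64.2 and 98.1 (log2 0.80, limma adjusted p = 0.012). Its partners GABPB1 and GABPB2 went opposite ways, 0.56 and -0.72. MYC and CREB1 rose by 0.85 and 0.72, and YY1 and HCFC1 fell by 0.45 and 0.73. PPARGC1B, a coactivator of respiratory genes, stood at 25.8, 22.8 and 22.4 and then at 12.2, 8.42 and 3.67 (log2 -1.56, limma adjusted p = 0.0045). NRF1, ESRRA and PPRC1 had -0.07, -0.32 and -0.19 and did not pass. PPARGC1A has no row in the table used here.

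Among 13 carrier and coenzyme Q genes 2 rose and 1 fell, against the same shares of all genes. SLC25A6, an ADP/ATP carrier, rose by 0.75 and COQ10B, a coenzyme Q binding protein, by 0.93. DHODH, which feeds electrons to ubiquinone, fell by 0.49 (limma adjusted p = 0.0499). CYCS, cytochrome c, had 0.46 (adjusted p = 0.11). Of the rule's genes that are not subunits, COX7A2L, a factor that joins complexes III and IV, rose by 0.69 (limma adjusted p = 0.024), while ATP5S had 0.44 and did not pass. ATP5J2-PTCD1 stood at 7.08, 6.13 and 6.13 and then at 3.25, 2.96 and 2.63, a fall of 0.92 on the log2 scale (SE 0.15; adjusted p = 0.0034 in limma). It shares exons with ATP5J2 and PTCD1, so its reads are uncertain.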

How the data were processed

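Messenger RNA was taken with oligo-dT beads, per the labels' protocols. Bowtie2, BWA and build hg19 are named, with no role, per the submitters' processing notes; the counter, annotation, strand setting and scaling are not given in the sources used here. The deposited file gives a normalized signal for each gene. Dividing by what 1 read is worth in a library, 0.0406 to 0.0693, gave whole reads for 100% of values (within 0.01 read), and these are the recovered counts from the deposited values. A count of 3 reads stands for 0.122 to 0.208. Every listed gene has reads in NC control cells, so genes without reads there are missing from the table.

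The members and lists were chosen with earlier results of these data known. The 12263 genes that reached 1 in 2 or more libraries were tested with limma 3.58.1 (R 4.3.3) and a mean-variance trend on log2(value + 1), which understates changes of low genes. The response and knockdown came from an additive model of genotype and medium, and the difference of the response from their interaction; p-values were Benjamini-Hochberg adjusted over all genes and called at 0.05. shYAP1 and shYAP3 served as replicates of the knockdown; NC has 1 library per medium. shYAP1 and shYAP3 are the same lines in both media, so cell line pairs the libraries: the difference between them correlated at 0.1024 between media over 12263 genes, with 2 pairs. Alternatives were quantile normalization, scaling to listed reads, edgeR 4.0.16 and DESeq2 1.42.0 on recovered reads (both counted as alternatives), other filters and pseudocounts (0.1, 5), no trend, length and GC trends removed, the cell line block, and leaving out each library.

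Lengths and GC are from GENCODE v29 (GRCh38), for 98 of 98 members, and need not be those of the expressed transcript. Values per kilobase divide the deposited value by that length. Named genes are the 13 mitochondrial genes, SDHA to SDHD, CYC1, per complex the 5 nuclear members with the smallest p and the 2 with the largest, paralogs, and the 3 pathway genes per list with the smallest p; other genes were chosen after their values were seen.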

Additional observations from a re-analysis of the deposited data

Results flagged for a closer look

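Among the named members, 6 had a response in NC cells of the sign opposite to both shYAP lines. This rests on 1 library per line and medium, and the opposition in sign was not tested. Members that are not named were not screened for it. The interaction, which compares NC with both shYAP lines together, did not pass for any of them in limma (smallest adjusted p of any member 0.99997). Log2 differences in NC cells were -0.16 for MT-ATP8, -0.23 for NDUFB10, -0.061 for CYC1, -0.072 for UQCR11, -0.0054 for COX7B and -0.16 for ATP5G3. In shYAP1 and shYAP3 cells all 6 were above 0.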

How the results depend on the processing

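NC has 1 library per medium, 3 libraries a group limit the precision, and the scaling behind the deposited values is not known. The medians of the nuclear subunits over all lines kept their sign in every alternative; the cause of the changes below was not tested. Over all genes, 3936 changed, 1086 to 5306 with a library left out; the knockdown called 1 gene (0 to 5, and 7 in DESeq2) and the difference of the response 0 (1 to 2735, 1 in DESeq2 and 4 with the replicate block of cell line). Of the library omissions, the shYAP1 deprived one gave 2735 and the shYAP3 deprived one 269.

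The 19 nuclear subunits that were higher became 9 after quantile normalization, 3 when scaled to listed reads, 8 with no filter, 30 in DESeq2, and 0 to 34 with a library left out. Of all genes, 14.8%, 6.11%, 10.9% and 17.1% were higher in these settings with every library kept, in the same order. Of lower nuclear subunits there were 3 when scaled to listed reads, 2 with length and GC trends removed and 0 to 1 with a library left out. Mitochondrial genes higher numbered 2 without the mean-variance trend (15.7% of all genes), 1 with the block (19.0%), 2 in DESeq2 (17.1%) and 0 to 2 with a library left out. Those lower numbered 8 after quantile normalization, 3 when scaled to listed reads, 2 with length and GC trends removed and 0 to 2 with a library left out. For the difference of the response, leaving out a library gave 0 to 54 nuclear subunits and 0 to 1 mitochondrial genes. With the block (pairing by cell line), MT-ND3 (0.49), NDUFA4, UQCRQ, ATP5L, SDHB, ATPIF1 and USMG5 gained the call and no other named gene changed it.

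The mitochondrial median turned to -0.42 after quantile normalization, -0.15 scaled to listed reads and -0.22 with length and GC trends removed, and the nuclear minus mitochondrial median to 0.73 after quantile normalization. In the same 3 settings the mitochondrial median was -0.47, -0.15 and -0.24 in NC, -0.28, 0.017 and 0.083 in shYAP1 and -0.74, -0.35 and -0.60 in shYAP3 cells. The nuclear median was -0.087 in NC and 0.43 in shYAP3 cells scaled to listed reads, and 0.48 in shYAP3 cells with trends removed.

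Single genes turned sign as follows. After quantile normalization: MT-ATP6 -0.36, MT-ATP8 -0.25, MT-CO1 -0.34, MT-CO2 -0.20, MT-CO3 -0.032, MT-CYB -0.58, MT-ND2 -0.67, MT-ND4 -0.53, MT-ND4L -0.42, ATP5G3 -0.067 and ATP5J2 -0.0088. Scaled to listed reads: MT-ATP6 -0.15, MT-ATP8 -0.16, MT-CO1 -0.12, MT-CO2 -0.10, MT-CYB -0.27, MT-ND2 -0.25, MT-ND4 -0.12, MT-ND4L -0.15, ATP5G3 -0.13, ATP5J2 -0.20, COX5A -0.086 and CYC1 -0.0065. With length and GC trends removed: MT-ATP6 -0.22, MT-ATP8 -0.45, MT-CO2 -0.10, MT-CYB -0.20, MT-ND2 -0.32, MT-ND3 -0.082, MT-ND4 -0.086, MT-ND4L -0.31, ATP5J2 -0.091, TFAM -0.14, NRF1 0.089, POLRMT 0.11, PPRC1 0.15 and UQCRFS1 0.0077. With a library left out: ATP5G1 -0.17 to 0.056, ATP5J2 -0.094 to 0.27, MT-CYB -0.040 to 0.089, MT-ND2 -0.12 to 0.21, NDUFB10 -0.11 to 0.11, NDUFV3 -0.14 to 0.029, PPRC1 -0.39 to 0.078 and UQCRFS1 -0.090 to 0.0048. Over named genes and settings, 1096 values kept direction and call, 196 lost the call, 49 gained it and 52 turned sign.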

Other observations

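The parts of the ATP synthase did not keep the same order in each line. In shYAP3 cells the median log2 difference was 1.24 over the 4 stalk genes and 1.06 over the 3 membrane genes. It was 0.55 over the 5 genes of the catalytic head and shaft and 0.43 over the 3 rotor ring paralogs. For the same parts in turn it was 0.24, -0.09, 0.21 and -0.16 in NC cells. In shYAP1 cells it was 0.38, 0.27, 0.49 and 0.17. The 5 small subunits of complex III had 0.08, 0.55 and 1.28 in NC, shYAP1 and shYAP3 cells, and the 2 redox subunits -0.09, 0.14 and 0.35. These values have no test.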
